A study of Homo sapiens with 9 samples.

Results

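RNA-seq of MG-63 cells grown on a boronized titanium alloy carrying HA was compared with RNA-seq of the same cells on the alloy with a titanium boride, TiB2, gene by gene. The comparison used 6 of the 9 libraries of the study, 3 per surface, and took every gene that the deposited table counted often enough to test, which was 20086 of 36385 genes. The groups are called here the HA coating (boronized Ti6Al4V/HA), TiB2 (Ti6Al4V+TiB2) and the bare alloy (uncoated Ti6Al4V), whose 3 libraries are shown beside the genes described and entered no test of this comparison unless stated. MG-63, which stands in for osteoblasts here, is an established line from a human osteosarcoma, and all groups were this 1 line. All 9 libraries were taken on day 7 of culture in osteogenic medium containing 100 nM dexamethasone, 50 µg/mL ascorbic acid and 10 mM beta-glycerophosphate, and all carried the same batch label. The labels mark the TiB2 libraries as left out of the submitters' final analysis, and their treatment text names the bare alloy and the HA composite but not TiB2. Separate cultures are not stated for the libraries of a surface, so p-values reflect only how these libraries vary, and that variation may be technical. They also do not spell out HA. The study's title concerns osteogenic differentiation on the HA coating, and setting that coating against TiB2 compares its 2 boron-containing surfaces with each other.

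Osteoblasts build bone by laying down a matrix rich in type I collagen and then mineralising it, a program driven by the transcription factors RUNX2 and SP7 and read out by genes such as ALPL, SPP1 and BGLAP. Cells on a foreign surface can also turn on inflammatory genes through NF-kB and antiviral genes through interferon signalling. Interferon-stimulated genes are switched on by STAT and IRF proteins that bind short elements near the gene start, and the secreted chemokines CXCL9, CXCL10 and CXCL11 are among them.

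The libraries held 60528871 to 72542556 counts in the 2 tested groups. All 12 markers of mesenchymal and MG-63 identity were tested, none was at 0 in either group, and none passed the test. Their summed level was 9011 to 9396 CPM (counts scaled to library size) on TiB2 and 6044 to 9905 CPM on the HA coating. The labels call the line epithelial-like, and the 12 epithelial markers summed to 203 to 216 CPM and 149 to 223 CPM. Libraries stood apart in 3 ways that touch the results below. First, the HA libraries differed from each other more than those of the other surfaces: the median squared deviation between a pair was 39.1 to 61.7 times the Poisson value on the HA coating, and on TiB2 it was 11.9 to 14.1 times. By this measure HA replicates 1 and 2 were the closest HA pair (39.1), followed by 2 and 3 (50.4) and by 1 and 3 (61.7). Second, HA replicate 1 lay nearer TiB2 than HA replicates 2 and 3 at most of the genes called without it, as given below. Last, bare alloy replicate 1 had 6.48% of its counts in ribosomal DNA rows, against 0.618% and 1.07% in the other bare libraries and 0.0838% to 0.197% in the 6 coated ones, and it lacked a set of blood cell genes that the other bare libraries had.

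On the HA coating 36 genes were higher and 91 lower than on TiB2 in edgeR's quasi-likelihood test (Benjamini-Hochberg adjusted p under 0.05 over all genes tested), which is 0.632% of the 20086 genes, or 0.179% higher and 0.453% lower. The matrix gene POSTN, the chemokine CXCL9, the collagenase MMP1, the mineral-regulating hormone STC1 and the bone matrix gene SPP1 were among those that rose. The transporters ABCC2 and ABCC3, the cytokine CSF2, the transcription factor CEBPB and a set of T cell genes were among those that fell. Every one of the 127 genes had no overlap between the 3 and 3 libraries, which held for 3627 genes (18.1%) of all tested. An unadjusted p under 0.05 was reached by 1285 genes higher (6.40%) and 1132 lower (5.64%), and the median log2 fold change of all genes was 0.02. Many of the 127 were low: 60 had a mean under 1 FPKM (fragments per kilobase, scaled to depth) in the higher group, 35 had at least 5 FPKM, and 29 had no count in one of the groups. Counts were also simulated, with the same spread on both surfaces for each gene and changes placed only in the better-counted genes. On these the test found 31 of 100 2-fold changes and 91 of 100 4-fold changes and also called 8 unchanged genes. The wider spread of the HA libraries and changes in low genes were not simulated, so these rates may not hold for the data. A gene that missed the threshold is not shown to be alike on both surfaces.

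Leaving out HA replicate 1 raised the counts to 560 higher and 664 lower of 20951 genes (5.84%), and these included all 127. At those 1224 genes, on a log2 scale with the TiB2 mean at 0 and the mean of the other HA libraries at 1, HA replicate 1 had a median position of 0.17 and was nearer its own group at 296 (24.2%). Each of the other 5 libraries, left out in the same way, had a median position of 0.97 to 1.00 in its own group over the 49 to 117 genes then called. Those genes were called with HA replicate 1 in the fit, so these positions and its own rest on unlike sets of genes. The HA libraries also took more of their deviation from the mean from a dependence on gene length and GC content (26% to 37.3%) than TiB2 replicates 1 and 3 (8.6% and 10%), with TiB2 replicate 2 at 31.6%. The part of this dependence in the results was not tested beyond a fit with a GC and length offset, which called 51 higher and 133 lower. DESeq2, another count test, called 174 higher (0.699%) and 316 lower (1.27%).

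**Figure D1:**
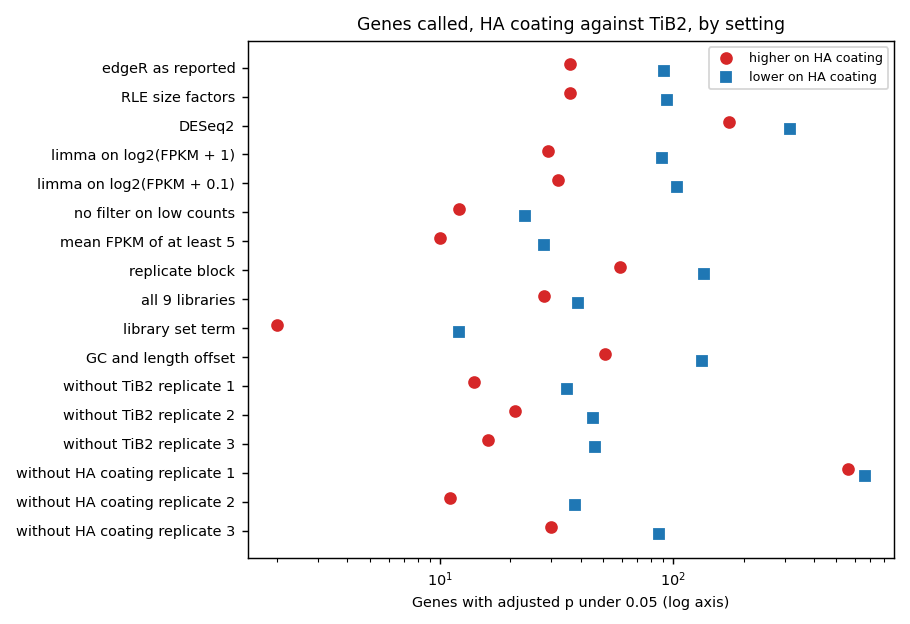
Number of genes higher (circles) and lower (squares) on the HA coating than on TiB2 at an adjusted p under 0.05, on a log axis, for the reported edgeR fit and 16 alternatives, which include other tools and filters, added libraries and each library left out. The counts ran from 2 and 12 with a term for the library set to 560 and 664 without HA replicate 1.

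The bare alloy libraries did not fall on one side. Each was placed, gene by gene, on the side of the group mean that was nearer on the log2(CPM + 0.05) scale. For 81 of the 127 genes (63.8%) bare replicate 1 lay on the HA side while bare replicates 2 and 3 lay on the TiB2 side, a pattern held by 1708 (8.50%) of all tested genes. All 3 bare libraries lay on the HA side for 17 genes (13.4%, against 25.3% of the tested genes) and all 3 on the TiB2 side for another 17 (13.4%, against 41.3%). The remaining 12 genes divided in other ways. Over the 127 genes, with the TiB2 mean at 0 and the HA mean at 1, the median position was 1.00 for bare replicate 1, 0.06 for bare replicate 2 and 0.12 for bare replicate 3. The divided pattern was held by 19 of the 35 genes with at least 5 FPKM (54.3%), and by 54 of the 93 with more than 3 counts in each group (58.1%). It was held by 202 of the 1224 genes called without HA replicate 1 (16.5%).

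**Figure D2:**
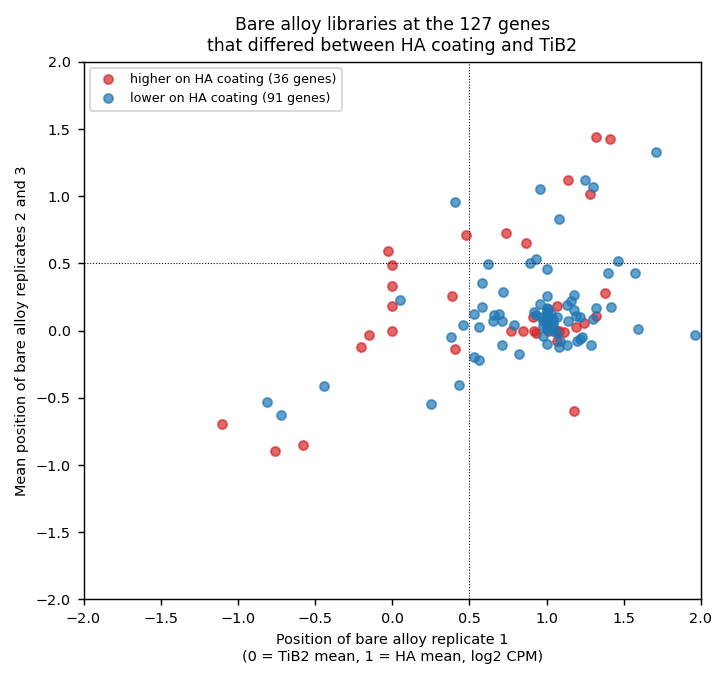
Position of bare alloy replicate 1 (horizontal) and mean position of bare alloy replicates 2 and 3 (vertical) for the genes that rose (red) or fell (blue) on the HA coating, on a scale where 0 is the TiB2 mean and 1 the HA mean of log2 CPM. Of the 127 genes 120 are drawn and 7 lie outside the axes, and the densest group of points sits near 1 on the horizontal and near 0 on the vertical axis.

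Because bare replicate 1 sided with the HA libraries and bare replicates 2 and 3 with TiB2, the results are given in 3 groups. These are genes at which the whole bare group lay nearer the HA coating, genes at which it lay nearer TiB2, and genes that divided it. For the last group, the surface and whatever set bare replicate 1 apart from bare replicates 2 and 3 cannot be told apart within the 6 tested libraries. A fit over all 9 libraries with an added term for that set (bare replicate 1 and the HA libraries against bare replicates 2 and 3 and TiB2) rests its estimate of the term on the bare libraries alone. The set was defined from how the bare libraries divided in these data, not from a label, so its values are given as a description. It called 2 genes higher (0.00943%) and 12 lower (0.0566%) of 21213, 0.0660% in all, and 3 of these were among the 127: POSTN, PDXP, whose locus is described below with an overlapping gene that fell, and the unnamed gene ENSG00000272916. Its standard errors were larger (0.26 against 0.16 for POSTN), so a gene that did not pass it is not shown to be free of a surface difference. The other 11 were small structural or ribosomal RNA genes and 1 short non-coding RNA, and all 11 were high in bare replicate 1.

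Among the genes with the whole bare group on the HA side, POSTN (ENSG00000133110, chr13:37562585-37598844, GRCh38) had the smallest adjusted p of the rises. It encodes periostin, a matrix protein of periosteum and other collagen-rich tissue that binds integrins and collagen. Its level was 19.8, 18.2 and 16.4 CPM in TiB2 replicates 1 to 3, 79.9, 87.9 and 84.7 CPM in the HA libraries, and 158, 167 and 155 CPM on the bare alloy. The 3 surfaces did not overlap, with TiB2 lowest and the bare alloy highest. POSTN rose by a log2 fold change of 2.20 ± 0.16 (SE; 4.61-fold, n = 3 and 3, edgeR adjusted p = 7.95e-04), and by 2.24 with the library set term (adjusted p = 0.0105). It passed the test with any 1 of the 6 libraries left out.

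PDXP (ENSG00000241360, chr22:37658723-37666932) encodes a phosphatase that removes phosphate from the vitamin B6 cofactor and from cofilin. It measured 2.49, 2.33 and 2.52 CPM on TiB2, 17.1, 12.1 and 19.8 CPM on the HA coating and 9.87, 9.36 and 9.99 CPM on the bare alloy. All 3 HA libraries lay above all others, and PDXP rose by 2.73 ± 0.23 (log2, edgeR adjusted p = 8.81e-04), with 2.70 and an adjusted p of 0.0426 in the edgeR fit with the library set term. ENSG00000285304 (chr22:37639693-37666932), a gene on the same strand that spans PDXP and ends at the same base, fell by 4.50 (log2, SE 0.48, edgeR adjusted p = 0.00262), from 12.2, 10.8 and 12.6 CPM on TiB2 to 0.686, 0.140 and 0.757 CPM on the HA coating. It was at 0, 0 and 0.510 CPM on the bare alloy. Summed over both genes the locus measured 14.7, 13.2 and 15.1 CPM on TiB2, 17.8, 12.3 and 20.5 CPM on the HA coating and 9.87, 9.36 and 10.5 CPM on the bare alloy, so TiB2 and the HA coating overlapped. How reads were divided between these overlapping genes is not given in the sources used here. The rise of PDXP is therefore uncertain. DKK2, a secreted modulator of Wnt signalling, measured 3.99, 2.52 and 3.25 CPM on TiB2, 10.8, 13.2 and 13.0 CPM on the HA coating and 18.9, 21.9 and 22.6 CPM on the bare alloy. As for POSTN, the HA libraries lay between the others, and DKK2 rose by 1.91 ± 0.23 (log2, edgeR adjusted p = 0.00586), passing with 5 of the 6 libraries left out in turn. FIBIN, which encodes a secreted protein, was at 12.4 to 17.1 CPM on TiB2, 27.9 to 36.9 on the HA coating and 34.9 to 37.5 on the bare alloy. Its rise of 1.17 ± 0.19 (log2, edgeR adjusted p = 0.0284) passed when 1 of the 6 libraries was left out and missed the threshold when any other was.

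The falls with the whole bare group on the HA side included genes of xenobiotic handling and inflammation. SCARA5 (ENSG00000168079), a scavenger receptor that binds ferritin, measured 46.2, 30.5 and 30.8 CPM on TiB2, 11.4, 9.22 and 6.82 CPM on the HA coating and 0.966, 1.49 and 1.35 CPM on the bare alloy. The 3 surfaces were separate and in that order, and SCARA5 fell by 1.97 on the log2 scale (SE 0.25, edgeR adjusted p = 0.00787; kept with 5 of the 6 libraries left out in turn). CSF2, the cytokine GM-CSF, was not counted in any bare library and measured 5.22, 2.21 and 3.70 CPM on TiB2 against 0.925, 0.592 and 1.06 CPM on the HA coating. It fell by 2.12 (log2, SE 0.38, edgeR adjusted p = 0.0415), and passed with 2 of the 6 libraries left out in turn. ABCC3, an export pump for conjugated organic anions, measured 84.8, 103 and 121 CPM on TiB2, 47.5, 34.6 and 29.6 CPM on the HA coating and 28.4 to 32.5 CPM on the bare alloy. It fell by 1.48 (log2, SE 0.23, edgeR adjusted p = 0.0192), and passed with 2 of the 6 libraries left out in turn. HA replicate 3 lay within the bare range and HA replicates 1 and 2 above it.

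Also with the bare group on the HA side were CHI3L1 and CYP1A1, named here after their values were seen. CHI3L1, a secreted chitinase-like glycoprotein made by connective tissue cells, measured 4421, 3632 and 4731 CPM on TiB2, 1747, 1560 and 1479 CPM on the HA coating and 1648, 1490 and 1550 CPM on the bare alloy. It fell by 1.43 (log2, SE 0.18, edgeR adjusted p = 0.00835; kept with 3 of the 6 libraries left out in turn), to a range that overlapped that of the bare alloy. CYP1A1, the cytochrome P450 that the aryl hydrocarbon receptor induces, measured 227, 244 and 201 CPM on TiB2, 80.8, 49.2 and 86.7 CPM on the HA coating and 9.28 to 13.0 CPM on the bare alloy. Its fall was 1.65 (log2, SE 0.23, edgeR adjusted p = 0.0115; kept with 4 of the 6), so the level on the HA coating lay between the other surfaces.

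Among the genes with the whole bare group on the TiB2 side were a collagenase, a chemokine, a calcium-regulating hormone and an integrin ligand, all raised on the HA coating. MMP1 (ENSG00000196611, chr11:102789401-102798160), the interstitial collagenase that cuts fibrillar collagen, measured 19.4, 9.78 and 17.2 CPM on TiB2 and 52.2, 65.1 and 205 CPM on the HA coating, with 2.80 to 3.79 CPM on the bare alloy. It rose by 2.78 ± 0.49 (log2, edgeR adjusted p = 0.0415), and by 1.91 to 3.10 when a library was left out, which kept the call for 2 of the 6. HA replicate 3 stood above the other HA libraries. STC1 (ENSG00000159167), stanniocalcin 1, a secreted glycoprotein that acts on calcium and phosphate transport, measured 0.710, 0.386 and 0.669 CPM on TiB2, 2.74, 2.99 and 3.24 CPM on the HA coating and 0.401 to 0.485 CPM on the bare alloy. It rose by 2.33 ± 0.32 (log2, 5.04-fold, edgeR adjusted p = 0.0118; kept with 3 of the 6 libraries left out in turn), and the HA libraries were alone in being above 1 CPM. EDIL3, a matrix protein that binds integrin through an RGD motif, measured 11.7, 15.1 and 15.5 CPM on TiB2, 32.5, 34.7 and 30.6 CPM on the HA coating and 16.6 to 19.4 CPM on the bare alloy. It rose by 1.20 ± 0.18 (log2, edgeR adjusted p = 0.0184; kept with 2 of the 6). DDIT4L, an inhibitor of the growth kinase mTOR, was at 7.67 to 9.35 CPM on TiB2, 15.5 to 23.5 on the HA coating and 3.39 to 5.29 on the bare alloy, and rose by 1.23 ± 0.21 (log2, edgeR adjusted p = 0.0332; kept with 1 of the 6 libraries left out). For DDIT4L and MMP1 every bare library lay below all TiB2 libraries, although TiB2 was the nearer mean.

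CXCL9 (ENSG00000138755), a chemokine that draws CXCR3-bearing T cells and is known for its induction by interferon gamma, went from near 0 to a clear signal. It measured 0, 0.0618 and 0.0623 CPM on TiB2, 1.20, 2.80 and 11.1 CPM on the HA coating and 0, 0 and 0.0658 CPM on the bare alloy. All 3 HA libraries were above all 6 others, which were at or near the limit that a count of 0 allows (3 counts, or 0.0454 to 0.0547 CPM, counting error only). The rise was 6.83 ± 1.01 (log2, edgeR adjusted p = 0.0167), and it passed with 2 of the 6 libraries left out in turn.

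**Figure D3:**
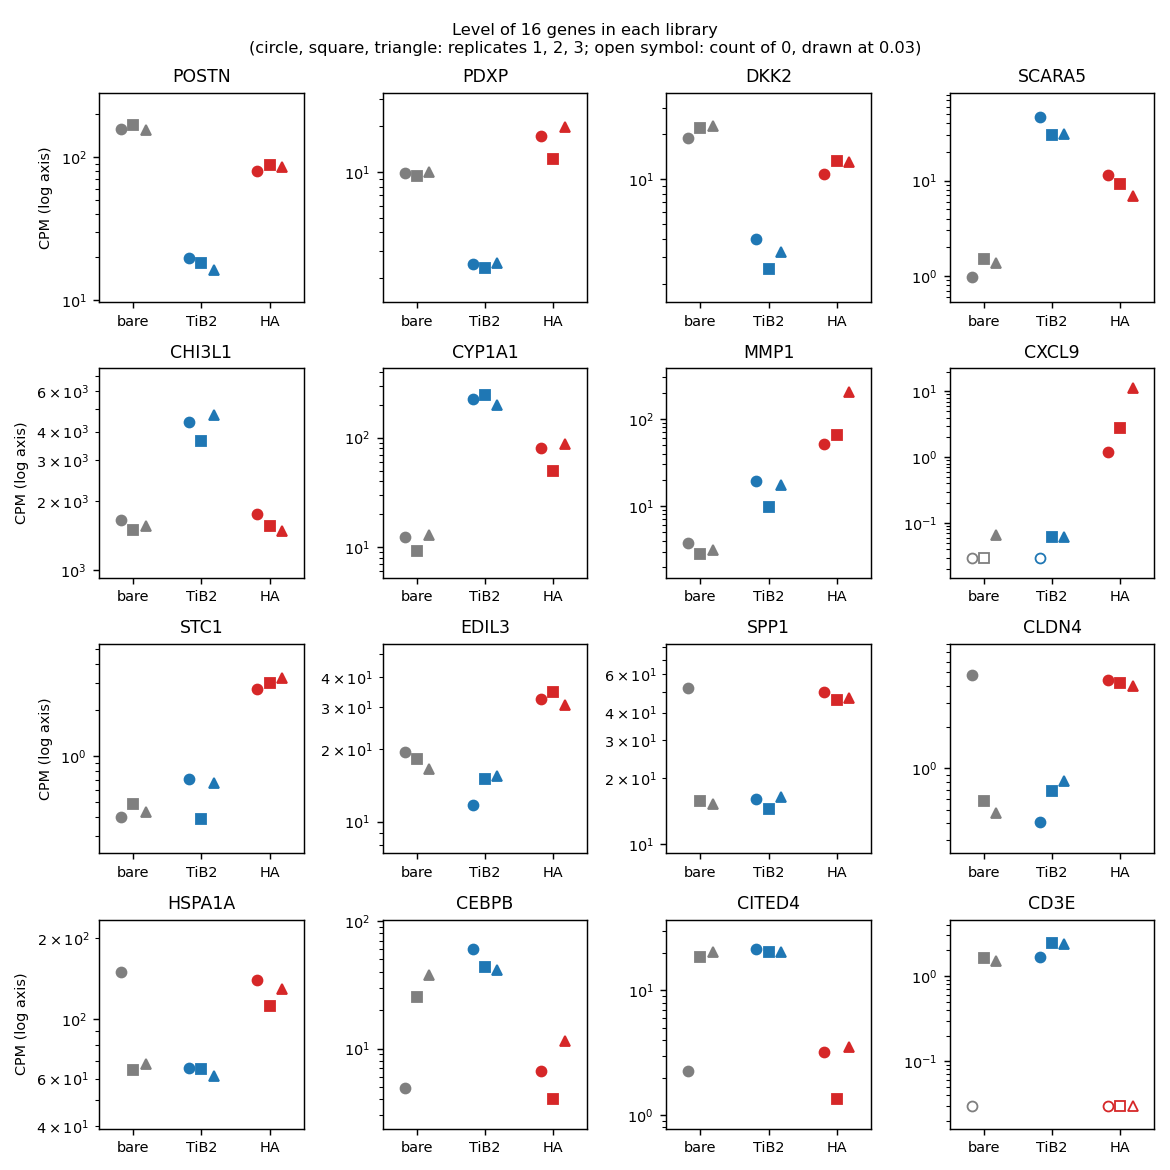
Level in CPM (log axis) of 16 genes in each library of the bare alloy (grey), TiB2 (blue) and the HA coating (red), with circle, square and triangle for replicates 1, 2 and 3 and open symbols for a count of 0. The whole bare group lay nearer the HA libraries for POSTN, PDXP, DKK2, SCARA5, CHI3L1 and CYP1A1, nearer TiB2 for MMP1, CXCL9, STC1 and EDIL3, and was divided for SPP1, CLDN4, HSPA1A, CEBPB, CITED4 and CD3E.

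CXCL9 was the 1 gene past the test among 33 tested interferon-stimulated genes, but the list as a whole lay to one side. Of the 33, 32 had a higher point estimate on the HA coating, 21 had an unadjusted p under 0.05 in that direction and none in the other (6.40% and 5.64% of all genes), and 22 had no overlap between the groups (8.54% of all genes). The median log2 fold change was 0.72, against 0.02 over all genes. Without HA replicate 1, 17 of the 33 rose and none fell in edgeR's test (2.67% and 3.17% of all genes). CXCL10 measured 14.8, 4.53 and 13.6 CPM on TiB2 and 22.9, 52.6 and 175 CPM on the HA coating (2.91 ± 0.68, edgeR adjusted p = 0.117), with 1.23 to 2.00 CPM on the bare alloy. CXCL11, the other CXCR3 ligand of this family, measured 1.67 to 4.97 CPM on TiB2 and 7.11, 19.2 and 55.5 CPM on the HA coating (3.05 ± 0.66, edgeR adjusted p = 0.0914), with 0.638 to 1.63 CPM on the bare alloy. In both, as in CXCL9, HA replicate 1 was the lowest HA library and HA replicate 3 the highest. These 3 genes and those that follow, other than CXCL9, were named after their values were seen.

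ISG15 and RSAD2, which did not pass the test, had another order of the surfaces. ISG15, a ubiquitin-like protein attached to other proteins after interferon, measured 90.3, 72.7 and 114 CPM on TiB2, 164, 230 and 364 CPM on the HA coating and 310, 288 and 273 CPM on the bare alloy (1.44 ± 0.29, edgeR adjusted p = 0.0694). RSAD2, the antiviral enzyme viperin, measured 31.6 to 47.7 CPM on TiB2, 69.7 to 110 CPM on the HA coating and 87.1 to 98.7 CPM on the bare alloy (1.19 ± 0.23, edgeR adjusted p = 0.0561). For both, TiB2 was the low surface and the bare alloy lay with the HA coating, whereas for the 3 chemokines the bare alloy was at or below the TiB2 level. Averaged over the 33 genes, the log2 level relative to the TiB2 mean was 0.53 to 0.58 in the bare libraries, and 0.56, 0.99 and 1.16 in HA replicates 1 to 3.

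The promoters of 3 of these genes are shown because they carry the element through which interferon is known to act. They are the 250 bases before the RefSeq gene start (GRCh38.p14), written 5′ to 3′ on the gene's strand, with matches to the interferon-stimulated response element in capitals. The letters searched, on both strands, were GAAA, then 2 bases of any kind, then GAAA. CXCL9 lies at chr4:76007510-76007759 (minus strand), CXCL10 at chr4:76023498-76023747 (minus strand) and ISG15 at chr1:1013247-1013496 (plus strand).
CXCL9: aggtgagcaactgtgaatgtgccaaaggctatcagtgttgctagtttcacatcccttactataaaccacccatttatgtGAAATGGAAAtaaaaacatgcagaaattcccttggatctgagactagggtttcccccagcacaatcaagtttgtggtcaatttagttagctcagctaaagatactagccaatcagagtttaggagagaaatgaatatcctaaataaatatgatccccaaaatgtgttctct
CXCL10: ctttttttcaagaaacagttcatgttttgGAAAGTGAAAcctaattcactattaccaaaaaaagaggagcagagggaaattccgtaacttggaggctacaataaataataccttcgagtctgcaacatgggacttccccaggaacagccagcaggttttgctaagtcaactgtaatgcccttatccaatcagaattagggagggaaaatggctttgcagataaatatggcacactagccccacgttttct
ISG15: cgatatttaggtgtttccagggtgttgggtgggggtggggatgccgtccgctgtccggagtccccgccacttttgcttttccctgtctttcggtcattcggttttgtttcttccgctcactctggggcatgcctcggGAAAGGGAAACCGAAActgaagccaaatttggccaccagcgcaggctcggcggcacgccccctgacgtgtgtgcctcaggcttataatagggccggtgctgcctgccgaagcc
The match lies 171 to 162 bases before the start in CXCL9 and 221 to 212 bases before it in CXCL10. ISG15 has 2 overlapping matches, 113 to 104 and 107 to 98 bases before the start. Of the 34 genes on the list 25 had a promoter in the table, and 15 of these held the letters, against 1061 of 35116 promoters (3.02%) overall. A match of these letters is not a measured binding site.

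The genes that divided the bare alloy included SPP1 (ENSG00000118785, chr4:87975667-87983529), which encodes osteopontin, an acidic bone matrix phosphoprotein that binds integrins and mineral. It measured 16.0, 14.5 and 16.4 CPM on TiB2 and 49.5, 45.9 and 46.7 CPM on the HA coating, while the bare libraries were at 51.7, 15.7 and 15.3 CPM. Bare replicate 1 lay above all HA libraries and bare replicates 2 and 3 lay within the TiB2 range. SPP1 rose by 1.59 ± 0.16 (log2, 3.01-fold, edgeR adjusted p = 0.00172; kept with any 1 of the 6 libraries left out), and the difference was -0.14 with the library set term (edgeR adjusted p = 0.984).

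Other rises had the same shape. ENPEP, the aminopeptidase that trims angiotensin, had no count in any TiB2 library or in bare replicates 2 and 3, and measured 1.69, 1.79 and 1.85 CPM on the HA coating and 1.86 CPM in bare replicate 1. Against the limit of 3 counts per library it was at least 37.5-fold higher on the HA coating (edgeR adjusted p = 0.00138). CLDN4, a tight junction protein of epithelia, measured 0.410, 0.680 and 0.809 CPM on TiB2, 4.40, 4.19 and 3.95 CPM on the HA coating and 4.75, 0.579 and 0.477 CPM on the bare alloy, and rose by 2.71 ± 0.32 (log2, edgeR adjusted p = 0.00524). The heat-inducible HSP70 gene HSPA1A measured 65.5, 65.0 and 61.3 CPM on TiB2, 139, 112 and 129 CPM on the HA coating and 149, 64.8 and 67.7 CPM on the bare alloy. It rose by 0.98 ± 0.16 (log2, edgeR adjusted p = 0.0286) and its near-identical copy HSPA1B by 1.02 ± 0.16 (edgeR adjusted p = 0.0265), each kept with 2 of the 6 libraries left out in turn. Reads shared between the copies make their separate values uncertain.

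Among the falls that divided the bare alloy were transcription and chromatin genes. CEBPB (ENSG00000172216, chr20:50190830-50192668), a transcription factor of inflammatory, stress and differentiation programs, measured 59.8, 43.6 and 41.3 CPM on TiB2, 6.67, 4.03 and 11.4 CPM on the HA coating and 4.94, 25.5 and 37.4 CPM on the bare alloy. It fell by 2.72 (log2, SE 0.34, edgeR adjusted p = 0.00720), and the library set term left -0.04. CITED4, a co-activator that binds CBP and p300, measured 20.5 to 21.5 CPM on TiB2, 3.22, 1.34 and 3.50 CPM on the HA coating and 2.28, 18.6 and 20.4 CPM on the bare alloy, a fall of 2.97 (log2, SE 0.32, edgeR adjusted p = 0.00308). H1-10, a linker histone, measured 50.4 to 54.8 CPM on TiB2, 5.39 to 16.3 CPM on the HA coating and 10.8, 46.6 and 52.6 CPM on the bare alloy (fell by 2.19, SE 0.34, edgeR adjusted p = 0.0191; kept with 3 of the 6 libraries left out in turn). In all 3 genes bare replicate 1 lay at the HA level and bare replicates 2 and 3 lay nearer TiB2. TMEM160, PRR7, NDUFAF8, a complex I assembly factor, and ZNF579, a zinc finger protein, fell by 4.02, 2.63, 2.46 and 2.15 with the same division of the bare libraries, and kept the call with 6, 4, 2 and 5 of the 6 libraries left out in turn.

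ABCC2, another export pump for organic anion conjugates, was at 10.1 to 11.2 CPM on TiB2, 2.38 to 3.68 on the HA coating and 0.856, 10.1 and 11.8 on the bare alloy, and fell by 1.81 (log2, SE 0.23, edgeR adjusted p = 0.00787). AKR1B10, an aldo-keto reductase that clears reactive aldehydes, was at 12.8 to 15.3 CPM on TiB2, 3.83 to 4.99 on the HA coating and 0.656, 4.36 and 3.80 on the bare alloy, and fell by 1.62 (log2, SE 0.20, edgeR adjusted p = 0.00630). The whole bare group lay on the HA side for AKR1B10, with replicate 1 lowest. Both passed with any 1 of the 6 libraries left out. With ABCC3 they were the 3 falls among 25 tested genes of NRF2 and oxidative stress (0.453% of all genes), with no rise. Without HA replicate 1 the list gave 4 rises and 5 falls (2.67% and 3.17% of all genes). The list's median was -0.27, and 11 members had an unadjusted p under 0.05 downward and 3 upward (5.64% and 6.40% of all genes). Without overlap, 10 lay below TiB2 and 1 above it (9.51% and 8.54% of all genes). Among those that did not pass, FTH1, the ferritin heavy chain, measured 2679 to 3482 CPM on TiB2 and 1041 to 2006 CPM on the HA coating, with 1005 to 1779 CPM on the bare alloy (-1.08 ± 0.24, edgeR adjusted p = 0.106). GCLM, the regulatory subunit of the enzyme that starts glutathione synthesis, measured 243 to 313 CPM on TiB2 and 138 to 168 CPM on the HA coating, with 94.4 to 104 CPM on the bare alloy (-0.86 ± 0.17, edgeR adjusted p = 0.0710). Both groups were separate in each of these genes.

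Of 20 T cell markers 14 were tested and 5 fell (CD3D, CD3E, LCK, TRBC2 and IL2RG), against 0.453% of all genes. None rose and 9 did not pass, with a median of -2.75. Of the 14, 13 had a lower point estimate and 1 a higher one (1.57). An unadjusted p under 0.05 in edgeR's test was reached by 9 downward and by 1 upward (5.64% and 6.40% of all genes). CD3E, a subunit of the T cell receptor complex, measured 1.66, 2.47 and 2.38 CPM on TiB2 and had no count on the HA coating or in bare replicate 1, while bare replicates 2 and 3 were at 1.61 and 1.50 CPM. Against the limit of 3 counts per library CD3E was at least 45.3-fold lower on the HA coating, CD3D at least 34.9-fold and LCK, the receptor's kinase, at least 43.1-fold lower (edgeR adjusted p = 0.00138, 0.00222 and 0.00164). LEF1, a Wnt effector also known from lymphocytes, measured 4.07, 4.48 and 1.99 CPM on TiB2 and had no count on the HA coating or in bare replicate 1, which makes it at least 73.4-fold lower (edgeR adjusted p = 0.00138). ITM2A, a membrane protein of T cells and cartilage, measured 11.6 to 15.1 CPM on TiB2, 0 to 0.125 CPM on the HA coating and 0, 10.6 and 8.08 CPM on the bare alloy. TRBV3-1, a T cell receptor variable segment, was at 2.37 to 3.83 CPM on TiB2 and 0 to 0.0311 CPM on the HA coating, with 0, 3.08 and 1.86 CPM on the bare alloy.

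The mean log2 level of the tested T cell markers was 0.22 to 0.28 on TiB2 and -0.08 and -0.10 in bare replicates 2 and 3, against -2.54 to -2.26 on the HA coating and -2.84 in bare replicate 1. Its summed level was 22.0 to 23.9 CPM on TiB2, 4.49 to 6.63 CPM on the HA coating and 3.35, 18.7 and 17.1 CPM on the bare alloy. Of the defining markers, CD3D, CD3E, CD3G and LCK were at 0 in all 3 HA libraries, and PTPRC, which all white blood cells carry, was at 0.386 to 0.994 CPM on TiB2 and 0.112 to 0.405 CPM on the HA coating, with 0.203 to 0.642 CPM on the bare alloy. MG-63 is a bone tumour line, and in bulk RNA fewer cells of a type and less RNA per cell cannot be told apart. How far RNA of other cells bears on the 81 genes that divide the bare alloy was not tested. With the library set term the median of the T cell list was -0.13 and none of its members passed. That fit cannot decide these genes, because the set was defined from a division of the bare libraries that the called ones share. CD3D, CD3E and LCK had no count in the HA libraries or bare replicate 1. Their standard errors with the term were 582.75, 634.84 and 167.73.

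Of the 15 osteoblast differentiation genes tested, SPP1 rose and none fell (0.179% and 0.453% of all genes), with a median of -0.19. RUNX2, the master factor of the lineage, measured 3.42, 4.16 and 3.38 CPM on TiB2, 4.12, 3.27 and 2.15 CPM on the HA coating and 2.07 to 2.68 CPM on the bare alloy (-0.21 ± 0.29, edgeR adjusted p = 0.791). ALPL, the alkaline phosphatase that frees phosphate for mineral, measured 16.3, 11.5 and 11.0 CPM on TiB2, 16.0, 8.60 and 8.46 CPM on the HA coating and 1.10 to 2.17 CPM on the bare alloy (-0.24 ± 0.28, edgeR adjusted p = 0.758). The TiB2 and HA ranges overlapped for both, and the bare alloy stood far below them for ALPL. COL1A1, which encodes the alpha 1 chain of type I collagen, measured 1272, 1388 and 1216 CPM on TiB2 and 1867, 638 and 917 CPM on the HA coating, with HA replicate 1 above and HA replicates 2 and 3 below TiB2 and the bare alloy above all of them at 2521 to 3390 CPM (-0.19 ± 0.34, edgeR adjusted p = 0.844). SPARC, a collagen-binding matrix protein, measured 2268 to 2468 CPM on TiB2 and 1423 to 1967 CPM on the HA coating without overlap, below the 3729 to 4352 CPM of the bare alloy (-0.47 ± 0.18, edgeR adjusted p = 0.370). BGLAP, osteocalcin, stayed at or under 0.257 CPM in these libraries and 0.266 CPM on the bare alloy (-0.46 ± 0.82, edgeR adjusted p = 0.845). SP7 and IBSP were too low to test, at 0 in all 3 HA libraries and at most 0.189 and 0.0631 CPM on TiB2. On the bare alloy SP7 measured 0.437, 0 and 0 CPM, and IBSP had no count.

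TNFRSF11B, the decoy receptor osteoprotegerin that blocks osteoclast formation, is on the same list and was named after its values were seen. It measured 715, 526 and 654 CPM on TiB2, 1014, 1289 and 1353 CPM on the HA coating and 140 to 165 CPM on the bare alloy. The groups were separate, and the difference of 0.94 ± 0.20 missed the threshold (edgeR adjusted p = 0.0797). Of the 11 tested genes of phosphate and mineral regulation, STC1 rose and none fell (0.179% and 0.453% of all genes), with a median of 0.42. NT5E, the ectonucleotidase CD73 that makes adenosine and phosphate outside the cell, measured 139 to 168 CPM on TiB2, 277 to 298 on the HA coating and 420 to 461 on the bare alloy (0.88 ± 0.17, edgeR adjusted p = 0.0547).

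No fibrillar or network collagen among 20 passed the test, and none of 25 collagen processing genes did. The collagens had a median of -0.47 and 17 of 20 point estimates below 0, and HA replicate 1 stood apart: relative to the TiB2 mean its average log2 level was 0.20, against -0.69 and -0.52 in HA replicates 2 and 3. Without HA replicate 1, 8 of the 20 collagens fell and none rose (3.17% and 2.67% of all genes in that fit). Of 27 matrix glycoproteins and proteoglycans, POSTN rose and none fell (0.179% and 0.453% of all genes), with a median of -0.32. Without HA replicate 1, 3 of these rose and 11 fell (2.67% and 3.17% of all genes). TNC, tenascin-C, another integrin-binding matrix protein, measured 63.2, 78.8 and 46.2 CPM on TiB2 and 478, 187 and 145 CPM on the HA coating, with 289 to 351 CPM on the bare alloy (2.10 ± 0.42, edgeR adjusted p = 0.0694). HA replicate 1 was the highest of the HA libraries for TNC, COL1A1 and FN1, and the lowest for CXCL10. MMP1 was the 1 call among 23 matrix proteases and inhibitors (0.179% of all genes rose), and none of 26 integrin and focal adhesion genes passed.

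NF-kB and inflammatory genes, 36 in all, gave 1 fall (CSF2) and no rise (0.453% and 0.179% of all genes), with a median of -0.35. The list was far lower on the bare alloy than on either boron-containing surface: the mean log2 level was 1.49 to 1.54 in the bare libraries, 3.48 to 4.44 in those on TiB2 and 3.82 to 4.23 in the HA libraries, so the HA range lay inside that of TiB2. CXCL8, the neutrophil-attracting chemokine, measured 377, 140 and 373 CPM on TiB2 and 162, 240 and 355 CPM on the HA coating, with 4.61 to 5.74 CPM on the bare alloy (-0.25 ± 0.38, edgeR adjusted p = 0.816). TiB2 replicate 2 was the lowest TiB2 library for CXCL8, CXCL10, CSF2 and MMP1. CCL20, a chemokine of T helper and dendritic cells, measured 1.58 to 5.68 CPM on TiB2 and 0.383 to 0.938 CPM on the HA coating and had no count on the bare alloy (-2.65 ± 0.50, edgeR adjusted p = 0.0561).

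Among 18 heat shock genes HSPA1A and HSPA1B rose and none fell (0.179% and 0.453% of all genes), with a median of 0.42. Both are near-identical copies with uncertain separate values, and both divided the bare alloy libraries. Of 26 Wnt genes 24 were tested, DKK2 rose and LEF1 fell (0.179% and 0.453% of all genes). Of 26 genes of ATF4 and the unfolded protein response CEBPB alone passed, downward (0.453% of all genes). Nuclear-encoded oxidative phosphorylation had no call among 25 genes, and its median of 0.47 became 0.14 without HA replicate 3. Cytosolic ribosomal proteins had no call among 31, and their median of 0.34 became -0.03 without that library. Cell cycle genes had no call either, with medians of 0.25 over 26 genes of G2 and M phase and 0.18 over 26 genes of G1 and S phase. The Notch list had the lowest median of the lists without a call, -0.53 over 17 genes, with none called. CLDN4 was the 1 call among 8 tested epithelial markers, upward (0.179% of all genes), but 6 of the 8 had a lower point estimate. The median of these markers was -0.35. An unadjusted p under 0.05 in edgeR's test was reached by 4 downward and 1 upward (5.64% and 6.40% of all genes). No tested marker of osteoclasts and macrophages, adipocytes, chondrocytes, endothelium or muscle passed.

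**Figure D4:**
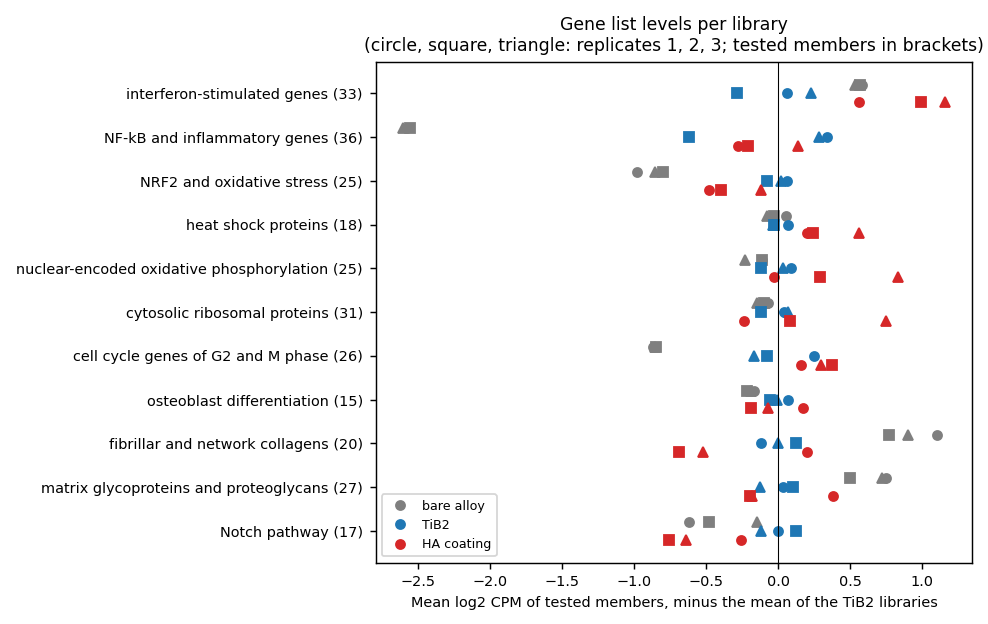
Mean log2 CPM of the tested members of 11 gene lists in each library, relative to the mean of the TiB2 libraries (0, vertical line), for the bare alloy (grey), TiB2 (blue) and the HA coating (red), with circle, square and triangle for replicates 1, 2 and 3. The HA libraries lay above TiB2 for the interferon-stimulated genes, the NF-kB list was far lower on the bare alloy alone, and HA replicate 1 lay apart from HA replicates 2 and 3 for the collagens.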

How the data were processed

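MG-63 RNA-seq libraries (9, on 3 surfaces) were analysed from 1 deposited table. It holds raw read counts and FPKM values per gene and library, as deposited by the authors. The deposited counts were used for all main tests. FPKM values, also deposited by the authors, served for limits on low genes and for the alternatives with limma and with a minimum FPKM. The submitters' processing notes name the GRCh38 build, limma, featureCounts 2.0.1, StringTie 2.1.4, HISAT2 2.2.1 and cutadapt 2.10 without their roles. Strand use is not given in the sources used here. Near-identical copies, overlapping genes and antisense genes are therefore uncertain. Each column of values matched 1 sample (0 unmatched).

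Genes were kept by filterByExpr over the 3 HA and 3 TiB2 libraries, scaled by TMM and compared with edgeR 4.0.16 (R 4.3.3) glmQLFit and glmQLFTest, two-sided, Benjamini-Hochberg adjusted, threshold 0.05, with no covariate. A standard error is the log2 fold change divided by the root of F. CPM use TMM factors over all 9 libraries. Libraries held 58464306 to 72542556 counts, and the limit of 3 counts covers counting error only. The test was checked on simulated data.

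The members, the 39 gene lists and the tests were chosen with earlier results of these data known, and the lists support no direction of their own. Genes named are 8 osteogenic genes, the 10 largest rises and 10 largest falls with a symbol, a mean of at least 5 FPKM in the higher group and no overlap, up to 3 called members per list, CD3D, CD3E, LCK and ENPEP, and up to 3 genes per division of the bare libraries. Genes named beyond that rule were chosen after their values were seen. Promoters are from RefSeq (GRCh38.p14). Alternatives were RLE scaling, DESeq2 1.42.0, limma 3.58.1 on log2(FPKM + 1) and log2(FPKM + 0.1), no filter, a minimum of 5 FPKM, a replicate block, all 9 libraries, a library set term, a GC and length offset (97% of genes had a GC value), and each library left out.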

Additional observations from a re-analysis of the deposited data

How the results depend on the processing

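The 36 rises and 91 falls stayed within 1.5 times under RLE scaling (36 and 94), limma on FPKM with either pseudocount (29 and 89, 32 and 104), and the GC and length offset (51 and 133). DESeq2 called 174 and 316. With no filter on low counts 12 and 23 were called, with a mean of at least 5 FPKM 10 and 28, with all 9 libraries in the fit 28 and 39, and with the library set term 2 and 12. Leaving out 1 library gave 11 to 560 rises and 35 to 664 falls. The highest were without HA replicate 1 (560 and 664). The others were 11 and 38 without HA replicate 2, 30 and 87 without HA replicate 3, 14 and 35 without TiB2 replicate 1, 21 and 45 without TiB2 replicate 2, and 16 and 46 without TiB2 replicate 3. The cause of these differences was not tested.

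Replicate numbers did not pair the libraries: deviations of same-numbered TiB2 and HA libraries correlated at -0.077, -0.024 and -0.005. A fit with the replicate block called 59 rises and 136 falls.

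Of the 34 named genes that passed, all 34 kept call and direction under RLE, DESeq2, the GC and length offset and without HA replicate 1. Left out in turn, TiB2 replicates 1, 2 and 3 and HA replicates 2 and 3 left 20, 24, 22, 21 and 30 of the 34 calls. Further, 29 and 32 kept the call under limma, 16 with no filter, 32 with the block, 11 with all 9 libraries and 2 with the library set term. That term turned the sign of the point estimate for SPP1 (-0.14), ENPEP (-0.07), HSPA1B (-0.17), HSPA1A (-0.19), CLDN4 (-0.45), TRBV3-1 (2.29), ITM2A (4.50), TMEM160 (0.90), CITED4 (0.13), PRR7 (0.22), NDUFAF8 (0.43), H1-10 (0.01), AKR1B10 (1.02), ABCC2 (1.87) and IL2RG (2.94). None of these passed. Their standard errors were 0.24 for SPP1, 0.56 for H1-10, 2.58 for ITM2A and 105.41 for ENPEP, so a change of direction is not shown for these. The errors were smaller against the estimate for ABCC2 (0.40) and AKR1B10 (0.37). RUNX2 was at -0.55 with the library set term, -0.44 without HA replicate 1 and 0.00 without HA replicate 3. COL1A1 was at -0.75 without HA replicate 1, 0.10 without HA replicate 2 and 0.13 with the GC and length offset. The cause was not tested. Of the 127 genes 60 lie under 1 FPKM in the higher group, where depth limits precision most.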
